A study of Homo sapiens with 6 samples.

Results

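The genes described here are KMT2A (also called MLL), its fusion partners and the cofactors with which MLL fusion proteins work. They were picked by symbol. All 10 listed symbols, KMT2A, MLLT3, MLLT1, MLLT10, AFF1, AFF4, MEN1, PSIP1, DOT1L and ELL, had a row among the 39771 rows of the table. RNA was sequenced from MOLM-13, a human acute myeloid leukaemia line carrying the MLL-AF9 translocation, which joins KMT2A to MLLT3. Every library came from cells that had received a lentiviral hairpin and puromycin selection. The hairpin was directed against LAMP5 in 4 libraries (shLAMP5) and was non-targeting in 2 libraries (shNT). LAMP5 encodes a lysosome-associated membrane protein. The question put to these genes is whether their RNA levels differ after LAMP5 knockdown. The hairpin sequence and harvest time of a given library, and its culture of origin, are not given in the sources read. Each p-value therefore reflects library-to-library spread, part or all of which may be technical.

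KMT2A is a methyltransferase of histone H3 that keeps developmental genes active. A leukaemic fusion keeps its N-terminal part, which binds chromatin through menin (MEN1) and LEDGF (PSIP1), and joins it to the C-terminal part of a partner such as AF9 (MLLT3). AF9 and its paralogue ENL (MLLT1) read acylated histones through a YEATS domain. They bind either the AF4 family scaffolds AFF1 and AFF4, which assemble the super elongation complex with ELL and P-TEFb, or the histone methyltransferase DOT1L with AF10 (MLLT10). DOT1L and menin are drug targets in leukaemias with KMT2A rearrangements.

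No gene among the 10 passed the test between shLAMP5 and shNT libraries. In every shLAMP5 library MLLT1 and AFF1 lay below both shNT libraries, averaging 76.5% and 79.1% of the shNT mean. For AFF1 this held for the values as deposited, but not after median scaling or quantile normalization of the libraries. No gene among the 10 was higher in all 4 shLAMP5 libraries. Values were read as TPM, an abundance corrected for transcript length and library total, since the table names no unit. A log2 fold change is the shLAMP5 mean minus the shNT mean of log2(TPM + 1), a scale that compresses differences of low genes. The test was limma over the 13072 genes that reached 1 TPM in 2 or more libraries, with Benjamini-Hochberg adjustment and an adjusted p threshold of 0.05. All 10 genes entered it.

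In limma, 0 of the 10 genes had an adjusted p under 0.05, against 0.0% of all genes tested, and 0 of 10 had an unadjusted p under 0.05, against 8.97% of all genes tested. Their adjusted p-values lay between 0.624 and 0.96. The 2 genes lower in every shLAMP5 library stand against 13.5% of all genes tested, and the 0 higher in every one against 8.25%. Of the 10 log2 fold changes 7 were negative and 3 positive, and their median was -0.17. Over all genes tested the median was -0.0060 and 50.7% were negative. The 95% intervals of all 10 included 0, and those of 9 lay within 1 log2 unit of 0, the exception being PSIP1. Without shNT 1 the count lower in every shLAMP5 library was 5, with MEN1, PSIP1 and DOT1L added to MLLT1 and AFF1, and AFF4 was then higher in all. In that setting 25.6% of all genes tested were lower in every shLAMP5 library and 18.4% higher. Without shNT 2 MLLT3 was higher in all 4, as were 15.9% of all genes tested.

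**Figure D1:**
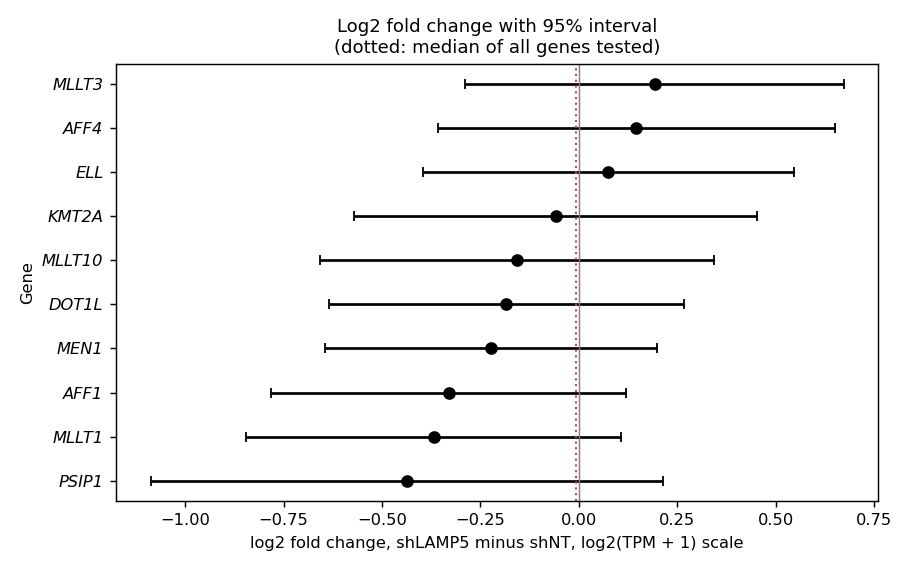
Log2 fold change of each of the 10 genes (shLAMP5 mean minus shNT mean of log2(TPM + 1)), with the 95% interval from limma as bars and the median of all genes tested as a dotted line. Every interval crosses 0, from PSIP1 at -0.44 to MLLT3 at 0.19.

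Sequence is shown for the 2 genes whose groups did not overlap in the values as deposited, MLLT1 and AFF1. Each line holds the 250 bases before a RefSeq start on GRCh38.p14, 5′ to 3′ on the strand of the gene. Capitals mark the SP1 box GGGCGG on either strand. They also mark the E-box, whose letters are CACGTG. The third motif in capitals is CCAAT, again on either strand. The MLLT1 window is chr19:6279976-6280225 on the minus strand. The AFF1 windows, for an upstream and a downstream start, are chr4:86934761-86935010 and chr4:87007021-87007270 on the plus strand. The table does not say which start was used in these cells.
MLLT1: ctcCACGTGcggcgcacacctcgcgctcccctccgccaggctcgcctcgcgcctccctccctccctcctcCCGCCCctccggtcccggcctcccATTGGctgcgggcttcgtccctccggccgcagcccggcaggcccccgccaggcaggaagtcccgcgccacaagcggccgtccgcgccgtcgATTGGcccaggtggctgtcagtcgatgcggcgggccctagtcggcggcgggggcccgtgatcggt
AFF1 upstream start: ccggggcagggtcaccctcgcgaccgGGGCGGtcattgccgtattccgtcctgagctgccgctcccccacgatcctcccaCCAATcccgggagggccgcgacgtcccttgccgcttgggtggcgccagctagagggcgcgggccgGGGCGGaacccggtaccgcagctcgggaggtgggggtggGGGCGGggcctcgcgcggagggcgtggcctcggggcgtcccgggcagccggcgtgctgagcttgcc
AFF1 downstream start: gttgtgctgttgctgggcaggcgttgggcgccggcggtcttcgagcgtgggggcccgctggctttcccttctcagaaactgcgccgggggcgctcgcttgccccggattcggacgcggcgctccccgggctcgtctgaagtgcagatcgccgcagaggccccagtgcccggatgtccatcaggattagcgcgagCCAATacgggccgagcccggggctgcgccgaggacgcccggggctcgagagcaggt

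The MLLT1 window held 1 SP1 box, 2 CCAAT boxes and 1 E-box, which began 247 bases before the start. The upstream AFF1 window held 3 SP1 boxes and 1 CCAAT box, and the downstream one held 1 CCAAT box. RefSeq windows were matched for 9 of the 10 genes, 13 windows in all, and DOT1L had none. GGGCGG was found in 10 of the 13 windows, against 42.6% of the 35116 windows of all genes, and CCAAT in 7 of 13, against 32%. CACGTG was found in 2 of 13 (MLLT1 and AFF4), against 6.34%. Neither TATAAA (10.7% of all windows) nor CCGGAAG, an ETS core (8.52%), occurred in the 13. The 13 windows had a GC content of 56% to 82%, and the median of all windows was 58%. Both strands were searched, and no match overlapped another in the printed windows. These matches describe letters only, and the windows of 1 gene can overlap.

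The checks of the series can be given briefly. Library sums lay between 897026 and 912565 TPM, and read depth is unknown. LAMP5 (ENSG00000125869) averaged 75.4 ± 9.89 TPM in shLAMP5 (SD, n = 4) and 226 ± 79.4 TPM in shNT (SD, n = 2), in the direction of the labels. Its log2 fold change of -1.535 did not pass either (limma p 0.000275 before and 0.252 after adjustment). A gene that did not pass is therefore not shown to be unchanged. Of 9 myeloid markers all passed the filter, with SPI1, a transcription factor of myeloid cells, at 205 TPM or more in every library. In limma 0 of the 9 passed and 1 had an unadjusted p under 0.05. Their log2 fold changes, 7 positive and 2 negative, had a median of 0.54. The negative ones were MPO, at -0.80 (limma adjusted p 0.716), and FLT3, at -0.10 (limma adjusted p 0.963). MPO averaged 18 ± 10.2 TPM in shLAMP5 (SD, n = 4) and 30.4 ± 18.1 TPM in shNT (SD, n = 2). CSF3R, a granulocyte growth factor receptor, had 211, 221, 234 and 223 TPM in shLAMP5 1 to 4, against 96.3 and 112 TPM in shNT 1 and 2 (log2 fold change 1.09, limma p 0.000216 before and 0.252 after adjustment). CSF1R, a macrophage growth factor receptor, averaged 36.7 ± 28.7 TPM in shLAMP5 (SD, n = 4) and 14.6 ± 8.79 TPM in shNT (SD, n = 2). Both lay above both shNT libraries in every shLAMP5 library, 2 of 9 markers against 8.25% of all genes tested. For CSF1R the margin was narrow, with shLAMP5 1 and 4 at 21.25 and 21.13 TPM and shNT 1 at 20.76 TPM. Its highest value was 79.66 TPM in shLAMP5 3. The myeloid list summed to 2100 to 10540 TPM in shLAMP5 and to 2603 and 6715 TPM in shNT. LYZ alone made up most of each sum, with 9730, 1397, 5119 and 9415 TPM in shLAMP5 1 to 4. It had 1984 and 6062 TPM in shNT 1 and 2. Of 9 T, B and erythroid markers 2 passed the filter, CD3D and CD79A, and 0 passed in limma. CD3E reached at most 0.049 TPM, and the summed list was 2.81 to 10 TPM in shLAMP5 and 2.69 to 4.93 TPM in shNT. Of 8 packaging cell and fibroblast markers 3 passed the filter, KRT8, KRT18 and COL1A1, and 0 passed in limma. COL3A1 was listed at 0 in all 6, and the summed list was 26.8 to 38 TPM in shLAMP5 and 29.3 to 31.9 TPM in shNT. Their part in the results was not tested. Median scaling divides a library by the median over genes of its ratio to the geometric mean of all 6 libraries. That factor was 0.839 for shLAMP5 2, whose values scaling therefore raised, while the rest lay between 0.998 and 1.06.

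For KMT2A and for MLLT3, the genes joined in MLL-AF9, the groups overlapped. KMT2A (ENSG00000118058) measured 2.22, 2.82, 3.15 and 2.11 TPM in shLAMP5 1 to 4, against 2.78 and 2.62 TPM in shNT 1 and 2. The shNT values lie in the middle of the shLAMP5 range, with shLAMP5 1 and 4 below and shLAMP5 2 and 3 above. On the log2 scale KMT2A differed by -0.059 (SE 0.22, 95% interval -0.57 to 0.45, limma adjusted p 0.96). With a mean of 2.62 TPM over the libraries KMT2A had the lowest level of the 10 genes, above 18.5% of the genes tested.

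MLLT3 (ENSG00000171843) measured 6.96, 9.76, 8.37 and 7.93 TPM in shLAMP5 1 to 4, against 6.25 and 7.94 TPM in shNT 1 and 2. The groups overlapped, since only shLAMP5 2 and 3 lay above both shNT libraries. Its log2 fold change was 0.19 (95% interval -0.29 to 0.67, limma adjusted p 0.815), and it was 0.042 without shNT 1 and 0.34 without shNT 2. A gene-level value pools every transcript of the gene. Reads from the 5′ part of the MLL-AF9 transcript can count towards KMT2A and reads from its 3′ part towards MLLT3, so fusion and normal transcripts cannot be told apart here.

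**Figure D2:**
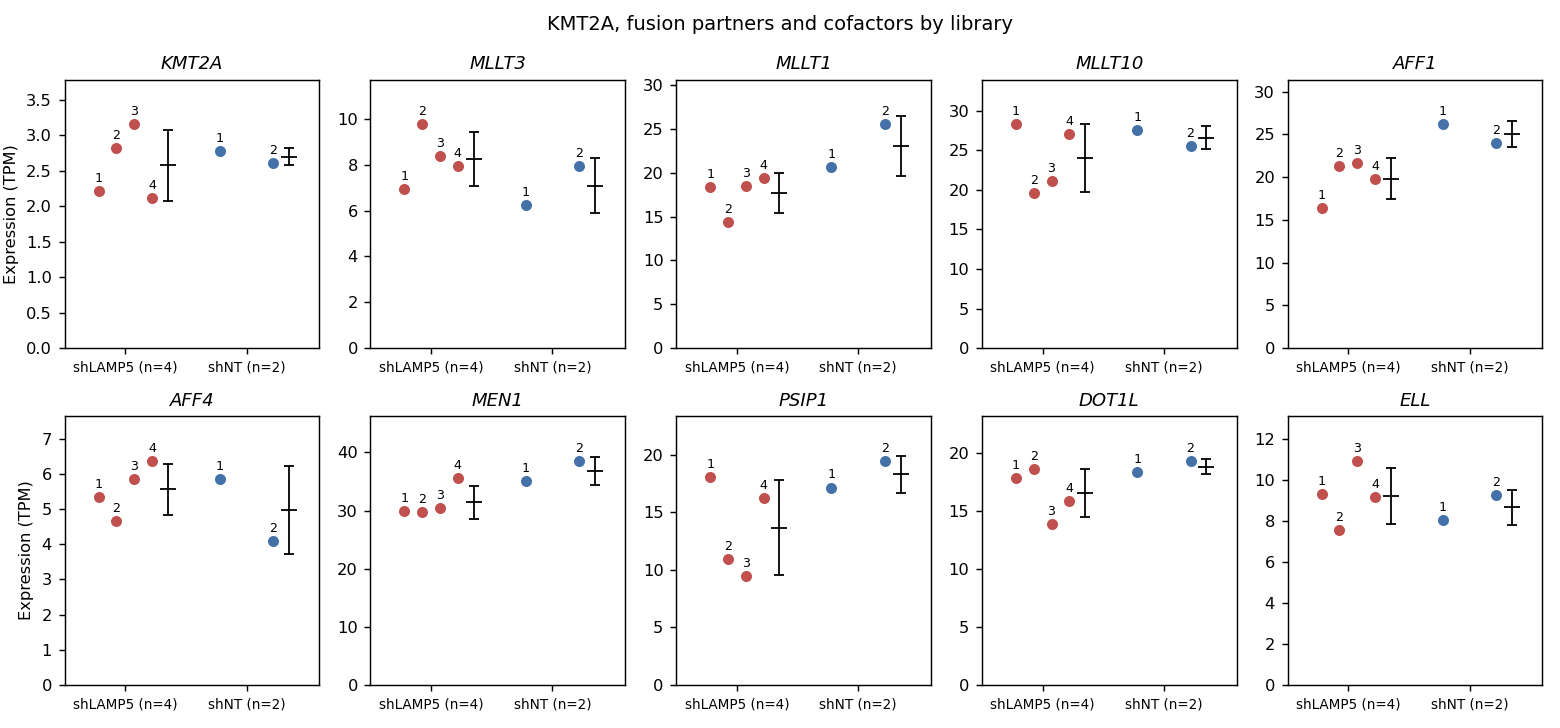
Expression in TPM of each gene in every library, with shLAMP5 1 to 4 in red and shNT 1 and 2 in blue, and the mean and SD of each group in black, on axes starting at 0. The groups do not overlap for MLLT1 and AFF1, and shLAMP5 2 and 3 stand apart for PSIP1 at 10.9 and 9.45 TPM.

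MLLT1 (ENSG00000130382), which encodes ENL, the reader of acylated histones on which many leukaemias with KMT2A fusions depend, was lower in each shLAMP5 library. It measured 18.4, 14.3, 18.5 and 19.4 TPM in shLAMP5 1 to 4, against 20.6 and 25.5 TPM in shNT 1 and 2. The means were 17.7 ± 2.26 TPM (SD, n = 4) in shLAMP5 and 23.1 ± 3.44 TPM (SD, n = 2) in shNT. The gap between the highest shLAMP5 and the lowest shNT library was small beside the spread within either group. The log2 fold change of -0.37 (SE 0.21, 95% interval -0.85 to 0.11) did not pass (limma p 0.112 before and 0.624 after adjustment). It was -0.22 without shNT 2.

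AFF1 and AFF4 encode the paralogous scaffolds of the super elongation complex. AFF1 (ENSG00000172493) measured 16.4, 21.3, 21.7 and 19.8 TPM in shLAMP5 1 to 4, against 26.2 and 24 TPM in shNT 1 and 2. Each shLAMP5 library lay below both shNT libraries, and shLAMP5 1 was the lowest. After median scaling and after quantile normalization the AFF1 groups overlapped, with a log2 fold change of -0.30 in each. The means were 19.8 ± 2.42 TPM (SD, n = 4) in shLAMP5 and 25.1 ± 1.55 TPM (SD, n = 2) in shNT, a log2 fold change of -0.33 (SE 0.20, 95% interval -0.78 to 0.12, limma p 0.129 before and 0.644 after adjustment).

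AFF4 (ENSG00000072364) measured 5.34, 4.67, 5.85 and 6.36 TPM in shLAMP5 1 to 4, against 5.85 and 4.08 TPM in shNT 1 and 2. Of the shLAMP5 libraries, 1 and 2 lay between the shNT values, 3 only just above them and 4 above them. Its log2 fold change was 0.15 (limma adjusted p 0.877), and -0.069 without shNT 2. AFF1 exceeded AFF4 in all 6 libraries, with an AFF1 to AFF4 ratio of 3.07, 4.57, 3.71 and 3.11 in shLAMP5 and 4.47 and 5.87 in shNT. The mean log2 ratio differed by -0.52 (exact two-sided permutation p 0.2, where the smallest that 15 splits allow is 0.0667), and shLAMP5 2 lay above shNT 1.

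ELL (ENSG00000105656), an elongation factor that was itself found as a fusion partner, measured 9.32, 7.55, 10.9 and 9.16 TPM in shLAMP5 1 to 4, against 8.08 and 9.26 TPM in shNT 1 and 2. The shLAMP5 libraries spread to both sides of the shNT libraries, with shLAMP5 2 lowest and shLAMP5 3 highest. The log2 fold change was 0.075 (95% interval -0.40 to 0.55, limma adjusted p 0.94).

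The proteins that tether the KMT2A N terminus to chromatin are menin and LEDGF. MEN1 (ENSG00000133895) had the highest level of the 10 genes, above 74.5% of genes tested. It measured 29.9, 29.7, 30.5 and 35.6 TPM in shLAMP5 1 to 4, against 35.1 and 38.5 TPM in shNT 1 and 2. In shLAMP5, 3 of 4 libraries lay below both shNT libraries, and shLAMP5 4 lay just above shNT 1. MEN1 had a log2 fold change of -0.22 (SE 0.18, 95% interval -0.65 to 0.20, limma adjusted p 0.745).

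PSIP1 (ENSG00000164985) measured 18.1, 10.9, 9.45 and 16.2 TPM in shLAMP5 1 to 4, against 17.1 and 19.4 TPM in shNT 1 and 2. The shLAMP5 libraries differed among themselves, with shLAMP5 2 and 3 well below every other library, while shLAMP5 1 lay between the shNT values and shLAMP5 4 just below them. Within shLAMP5 the highest value was 1.91 times the lowest, the widest ratio of the 10 genes. The log2 fold change of -0.44 had the widest interval as well (SE 0.28, 95% interval -1.09 to 0.21, limma adjusted p 0.675), and it was -0.29 without shLAMP5 3. The long (p75) and short (p52) products of PSIP1, of which p75 carries the menin-binding part, are pooled in the value.

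DOT1L methylates histone H3 along transcribed genes, and MLLT10 encodes its partner AF10. DOT1L (ENSG00000104885) had 17.8, 18.6, 13.9 and 15.9 TPM in shLAMP5 1 to 4, against 18.4 and 19.3 TPM in shNT 1 and 2. The groups overlapped through shLAMP5 2, and shLAMP5 3 was lowest. Its log2 fold change was -0.18 (95% interval -0.63 to 0.27, limma adjusted p 0.81), and it was -0.11 without shLAMP5 3.

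MLLT10 (ENSG00000078403) had 28.3, 19.6, 21.1 and 27.1 TPM in shLAMP5 1 to 4, against 27.6 and 25.6 TPM in shNT 1 and 2. As for PSIP1, shLAMP5 2 and 3 were the lowest libraries and shLAMP5 1 and 4 lay near the shNT libraries. The log2 fold change was -0.16 (limma adjusted p 0.864), and -0.069 without shLAMP5 2 or -0.10 without shLAMP5 3.

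**Figure D3:**
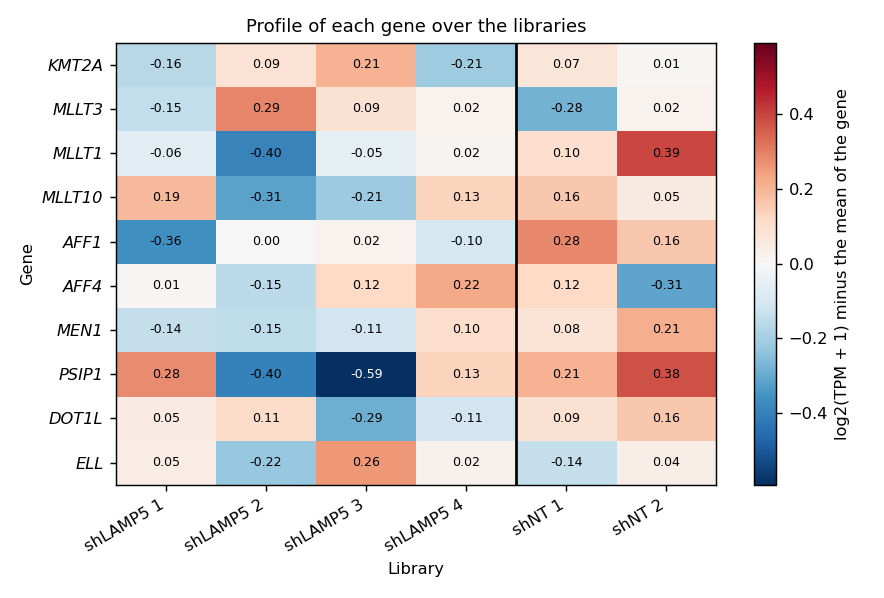
Level of each gene in each library on the log2(TPM + 1) scale after subtracting the mean of the gene over the 6 libraries, with shLAMP5 left and shNT right of the black line. The lowest cell is PSIP1 in shLAMP5 3, and MLLT1 and PSIP1 are highest in shNT 2 and share a value of -0.40 in shLAMP5 2.

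Between genes, the order of the mean levels over the 6 libraries was MEN1, MLLT10, AFF1, MLLT1, DOT1L, PSIP1, ELL, MLLT3, AFF4 and KMT2A, from 33.2 to 2.62 TPM. MEN1 exceeded MLLT10 in 6 of 6 libraries, MLLT3 exceeded AFF4 in 6 and AFF4 exceeded KMT2A in 6. The other neighbours changed places in some library. MLLT10 exceeded AFF1, and AFF1 exceeded MLLT1, in 4 of 6, and DOT1L exceeded PSIP1 in 3 of 6. In the values as deposited most of the 10 genes were steady. Their residual SD on the log2(TPM + 1) scale was under the median of all genes (0.294) for 9 of 10, the exception being PSIP1 at 0.365. MEN1 was the steadiest at 0.114, and only 5.23% of genes tested had a lower SD. That rank depended on scaling. MLLT1 was the steadiest after median scaling (0.0947, MEN1 0.135) and after quantile normalization (0.101, MEN1 0.126). Besides MEN1, median scaling raised the residual SD of MLLT3 (0.189 to 0.289), AFF1 (0.158 to 0.256), DOT1L (0.156 to 0.255) and KMT2A (0.174 to 0.238). It lowered that of MLLT1, MLLT10, AFF4, PSIP1 and ELL. The median of all genes after scaling is not given here. For 9 of the 10 genes the range of TPM values within shLAMP5 was wider than the difference between the group means, the exception being MLLT1.

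By library, shNT 2 had the highest value for 4 of the 10 genes and shLAMP5 2 the lowest for 4. The 10 values summed to 153, 139, 143 and 160 TPM in shLAMP5 1 to 4, and to 168 and 176 TPM in shNT 1 and 2. All 4 shLAMP5 sums lay below both shNT sums, with most of the gap in MLLT1, AFF1, MEN1 and PSIP1. Of all genes tested 13.5% were likewise lower in every shLAMP5 library, and no such share was computed for sums. A sum weighs the more abundant genes most, and 0 of the 10 genes passed in limma. In bulk RNA, a lower level in every cell and a change in the mix of cells cannot be told apart.

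The balance between the YEATS paralogues was set side by side as a ratio within each library. MLLT3 to MLLT1 was 0.379, 0.681, 0.453 and 0.408 in shLAMP5 1 to 4, against 0.303 and 0.311 in shNT 1 and 2, so MLLT1 was the more abundant in every library. All 4 shLAMP5 ratios lay above both shNT ratios. The mean log2 ratio differed by 0.61 (exact two-sided permutation p 0.133, higher in 4 of 4 libraries), and by 0.42 without shLAMP5 2. Of 12792 other genes, 36.0% had a ratio to MLLT1 that was likewise higher in every shLAMP5 library, and 2.01% a lower one.

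KMT2A to MEN1 was 0.0741, 0.0951, 0.103 and 0.0593 in shLAMP5 1 to 4, against 0.0794 and 0.068 in shNT 1 and 2, and the groups overlapped (difference of mean log2 ratio 0.14, exact two-sided permutation p 0.733). Of all 45 pairs among the 10 genes, which share members and are not independent, 7 (15.6%) had ratios that did not overlap between the groups, against 23.9% of all pairs of genes tested. MLLT1, MLLT3 and ELL took part in 3 of these each, and KMT2A, MLLT10 and DOT1L in 0. Apart from MLLT3 to MLLT1 they were MLLT3 to AFF1 and to MEN1, which were higher in shLAMP5, and MLLT1 to AFF4, MLLT1 to ELL, MEN1 to ELL and PSIP1 to ELL, which were lower.

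**Figure D4:**
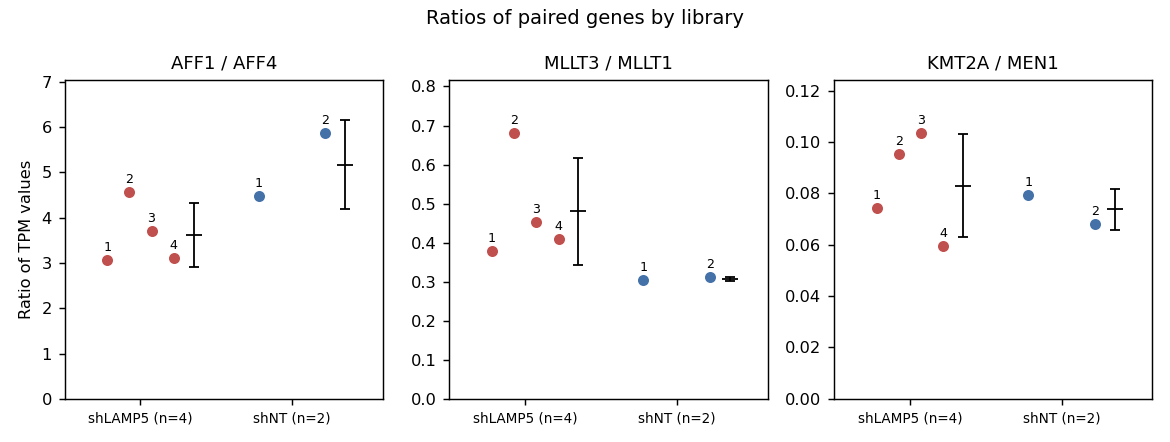
Ratio of TPM values within each library for AFF1 to AFF4, MLLT3 to MLLT1 and KMT2A to MEN1, with shLAMP5 1 to 4 in red, shNT 1 and 2 in blue and mean and SD in black. The MLLT3 to MLLT1 ratios of shLAMP5, 0.379 to 0.681, lie above both shNT ratios.

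Genes that work around KMT2A gave no call either. In the complex of KMT2A and its processing, 12 of 13 listed genes were tested, of which 5 were positive and 7 negative, with a median of -0.083 on the log2 scale, and 0 passed (limma smallest unadjusted p 0.0954). WDR5, the core subunit that docks KMT2A, had 45, 27.2, 31.6 and 46.4 TPM in shLAMP5 1 to 4, against 46.5 and 55.5 TPM in shNT (log2 fold change -0.46, limma adjusted p 0.635). HCFC1, a cofactor bound by KMT2A, had -0.39. Both were lower in all 4 shLAMP5 libraries, though shLAMP5 4 lay only just below shNT 1 for WDR5. These were the 2 of 12 lower in every shLAMP5 library, and 0 were higher, against 13.5% and 8.25% of all genes tested. KAT8, an acetyltransferase, had 0.26 and JUND, a transcription factor bound by menin, 0.35. JUND was high in shLAMP5 2 and 3, at 149 and 142 TPM. KMT2B and MLLT6 were not analysed here.

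Among genes whose products bind AF9, ENL or AF10, or share the YEATS domain, 6 were tested, with 1 positive, 5 negative and a median of -0.087, and 0 passed (limma smallest unadjusted p 0.105). YEATS4, a YEATS protein of acetyltransferase and remodelling complexes, had 21.5, 11.1, 13 and 19.9 TPM in shLAMP5 1 to 4, against 21.4 and 25.3 TPM in shNT (log2 fold change -0.53, limma adjusted p 0.614). Its low libraries were shLAMP5 2 and 3, as for PSIP1. YEATS2 had -0.37 and was lower in all 4, the 1 such gene of the 6, against 13.5% of all genes tested. SKP1, a ubiquitin ligase subunit, had 0.029.

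Of 13 elongation and P-TEFb genes 11 were tested, with 3 positive, 8 negative and a median of -0.046, and 0 passed (limma smallest unadjusted p 0.159). ELL2, the paralogue of ELL, had 7.16, 5.63, 6.47 and 7.07 TPM in shLAMP5 1 to 4, against 5.42 and 4.88 TPM in shNT, higher in all 4 (log2 fold change 0.30, limma adjusted p 0.674). CDK9, the P-TEFb kinase, had 0.16 and was higher in all 4, while its partner cyclin CCNT1 had -0.16 and was lower in all 4, by a narrow margin in shLAMP5 1. Among the 11 genes 2 were higher and 2 lower in every shLAMP5 library, against 8.25% and 13.5% of all genes tested.

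The PAF1 complex accompanies RNA polymerase and helps to hold KMT2A on chromatin. Its 6 genes had a median of -0.087 with 2 positive and 4 negative, and 0 passed (limma smallest unadjusted p 0.248). LEO1 had -0.26, SKIC8 -0.21, CDC73 0.10 and CTR9 0.032.

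Other genes known as KMT2A fusion partners showed the widest values, with 23 of 26 tested, 16 positive, 7 negative and a median of 0.12. In limma 0 passed, and at an unadjusted p under 0.05 there were 2 of 23, both lower, against 8.97% of all genes tested. SEPTIN11, a septin, had 10.1, 10.1, 10.3 and 11.5 TPM in shLAMP5 1 to 4, against 15.1 and 17.6 TPM in shNT (log2 fold change -0.59, SE 0.18, limma p 0.0118 before and 0.505 after adjustment). KNL1, a kinetochore scaffold, had 4.51, 3.67, 2.2 and 5.58 TPM in shLAMP5 1 to 4, against 9.13 and 6.85 TPM in shNT (log2 fold change -0.89, limma p 0.0206 before and 0.52 after adjustment). GAS7 had 0.70, with 62.6 TPM in shLAMP5 3 and at most 31.6 TPM elsewhere, and FOXO4, a forkhead transcription factor, 0.41. Of the 23 genes 3 were lower in every shLAMP5 library and 1 was higher in every one, against 13.5% and 8.25% of all genes tested.

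**Figure D5:**
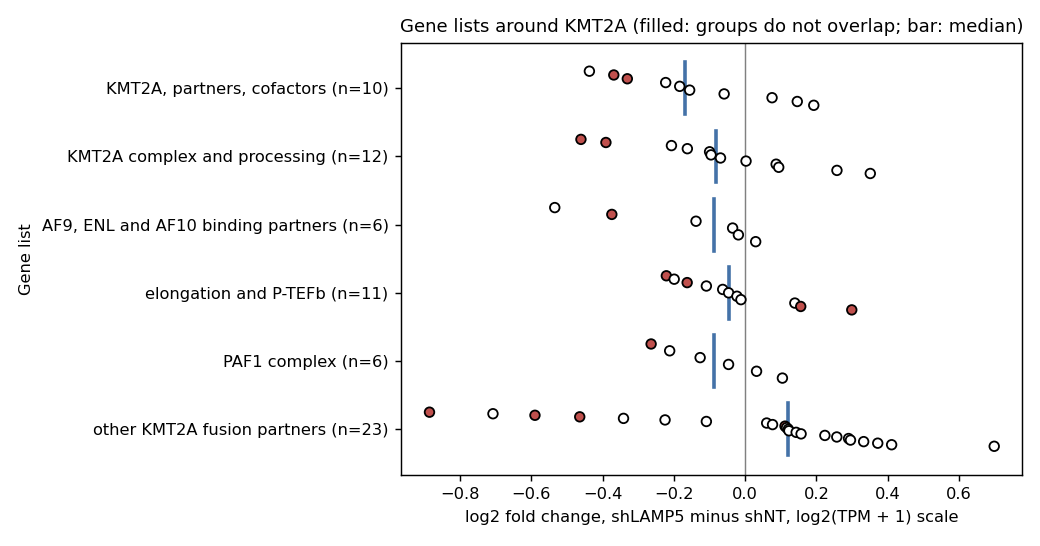
Log2 fold change of every gene tested in 6 lists (shLAMP5 mean minus shNT mean of log2(TPM + 1)), with filled points for genes whose groups do not overlap and a blue bar for the median of the list. The median is -0.17 for the 10 genes and 0.12 for the other KMT2A fusion partners.

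Over all genes with a mean of at least 10 TPM, 7204 in number, those whose centred profile over the 6 libraries was most like that of KMT2A were MBD6, KDM5C, RPL10A, FAM193A and CRTC2. Likeness was the root mean square difference of the centred log2(TPM + 1) values, which was 0.0226 for MBD6 and 0.0577 for CRTC2. MBD6 had 21.3, 24.6, 27.4 and 20.2 TPM in shLAMP5 1 to 4, against 24 and 23.4 TPM in shNT, with the same order of libraries as KMT2A. For MLLT3 the nearest were USP20, NDST2, DEF6, TRIB1 and ITPRID2, at 0.0626 to 0.0748. USP20 had 18.8, 23.8, 19.5 and 20.5 TPM in shLAMP5 1 to 4, against 15.4 and 19.1 TPM in shNT. These likenesses describe 6 libraries in 2 hairpin groups, and a difference between the groups enters them.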

How the data were processed

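The table the authors deposited holds 39771 Ensembl genes in 6 libraries. Its header names no unit, and the values as deposited were read as TPM because they are fractional with near-equal library sums. Per the submitters' processing notes, which give no roles, the authors used kallisto and hg19 before the TPM table was deposited. Version, transcript set, gene summing and filters are not stated there. Since TPM holds no read number, depth is unknown and counting intervals could not be had. Groups and replicate numbers came from the titles. A symbol was matched for 29895 identifiers.

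Log2(TPM + 1) values of genes reaching 1 TPM in 2 or more libraries were fitted in R 4.3.3 with limma 3.58.1, using the group as sole factor and a mean-variance trend. The fit was tested on simulated data first. Ratios within libraries were compared by an exact two-sided permutation test over 15 splits. Tables and figures used matplotlib 3.10.9, numpy 2.4.6 and pandas 2.3.3 under Python 3.11.15. Sequences are RefSeq's on GRCh38.p14. No coordinates of the table's genes are given, since the reference is of another build.

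The 10 genes and the lists were chosen with earlier results of these data known. Named were the 10 genes, LAMP5, up to 2 tested genes per direction with the smallest p in each list, and the 5 genes most like KMT2A and MLLT3. Alternatives were other pseudocounts, filters, scalings, trend and weights, leaving out libraries, and the replicate number as a block. The values of 1 gene falling under it are left out. Other genes named were chosen after their values were seen.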

Additional observations from a re-analysis of the deposited data

Results flagged for a closer look

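MEN1 was picked out within the shLAMP5 group because shLAMP5 4, at 35.6 TPM, stood far from 29.9, 29.7 and 30.5 TPM in the other 3. The gap to its nearest neighbour was 0.865 of the range of the 4 values, over Dixon's critical value of 0.829. Chance alone picks out about 1 in 20 such groups, and 13 were looked at.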

How the results depend on the processing

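Across 16 alternatives, the log2 fold changes of the 10 genes were computed 156 times. None passed an adjusted p of 0.05 in limma, and 150 kept their direction. The 6 that turned were KMT2A without shLAMP5 4 (0.0043), MLLT3 without shNT 1 and shLAMP5 2 together (-0.034), AFF4 without shNT 2 (-0.069), and ELL without shLAMP5 3 (-0.0012), without shNT 1 (-0.013) and with the replicate block (-0.039). Leaving out 1 library gave -0.14 to 0.0043 for KMT2A, -0.069 to 0.36 for AFF4, -0.013 to 0.16 for ELL, 0.042 to 0.34 for MLLT3 and -0.24 to -0.11 for DOT1L, which was -0.045 with the replicate block. The count of all genes called was 0, also when any 1 library was left out, but 14 with no filter on low genes, 210 with library weights and 16 with the replicate block, and the cause was not tested. At a minimum of 10 TPM the median of the 10 genes was -0.28, over the 6 genes that passed, and it was -0.21 to -0.12 when 1 library was left out. Genes lower in every shLAMP5 library numbered 2 to 5 when 1 library was left out and 5 without shNT 1 and shLAMP5 2 together, and those higher 0 to 1 and 1. Of all genes tested, 15.9% to 25.6% were lower and 9.01% to 22.5% higher in every shLAMP5 library when 1 library was left out, and 29.9% and 33.6% with both left out. With 1 shNT library left, that library is assumed to vary like the others. In the replicate block shLAMP5 3 and 4 have no shNT library of the same number, so the group difference there rests on replicates 1 and 2. The replicate numbers did not pair the libraries: deviations of shLAMP5 1 and shNT 1 correlated at -0.52, and those of shLAMP5 2 and shNT 2 at -0.474. Deviations of the 2 shNT libraries mirror each other, so each correlation has its opposite with the other shNT library. Those of shLAMP5 1 and 4 correlated with shNT 2 at 0.52 and 0.518, and those of shLAMP5 2 and 3 with shNT 1 at 0.474 and 0.276. The source of this shared pattern was not tested. Under median scaling and under quantile normalization the 2 genes lower in every shLAMP5 library were MLLT1 and PSIP1, and AFF1 overlapped. Of the 13072 genes tested, 1789 and 1925 were lower in every shLAMP5 library in these settings. The AFF1 to AFF4 difference ranged from -0.72 to -0.33, and that of MLLT3 to MLLT1 from 0.42 to 0.71, when 1 library was left out. The KMT2A to MEN1 difference was 0.0040 under quantile normalization and 0.026 (without shLAMP5 3) to 0.29 (without shLAMP5 4) when 1 library was left out. Read depth, which would limit the low genes most, is unknown.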
